A study of Mus musculus with 6 samples.

Results

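The 10 genes described here encode matricellular proteins: the thrombospondins Thbs1, Thbs2, Thbs3 and Thbs4, the CCN proteins Ccn1 and Ccn2, periostin (Postn), tenascin C (Tnc), Sparc and osteopontin (Spp1). They are listed by protein family, with earlier results of these data known when the list was made, and all 10 were found by symbol among the 18005 genes of the count and FPKM tables. RNA was sequenced from the hearts of 3 young and 3 old mice, all labelled wild type (WT) and untreated. The series title names age-related pathological cardiac hypertrophy as the setting. The age in months, strain, sex and part of the heart are not stated in the labels, so "young" and "old" are used as the labels use them. Each title carries a mouse number from 1 to 3, read here as the name of 1 animal.

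Matricellular proteins are secreted into the extracellular matrix but bear little of its load. They bind matrix fibres, growth factors, proteases and cell surface receptors such as integrins, and so pass signals between matrix and cells. In the adult heart many of them are scarce at rest and are known to rise after injury or pressure load, when fibroblasts, macrophages, vessel cells and stressed myocytes make them. Thbs1 is also known as an activator of latent TGF-beta, and Ccn1 and Ccn2 as quickly induced targets of the transcriptional regulators YAP and SRF.

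Library totals ranged from 11295280 to 12514005 counts, so 1 count was worth about 0.0839 CPM (counts scaled to a common library total). Cardiomyocyte markers such as Myh6 were abundant, with the 10 listed markers summing to 86210 to 90629 CPM in young and 101105 to 105089 CPM in old hearts. Of these 10 markers 3 rose and 0 fell. A large part of the higher sum was Actc1, at 8207 ± 326 CPM in young and 17339 ± 1302 CPM in old hearts (SD, n = 3). Myh6 was not called (log2 fold change -0.02 ± 0.11). Of 8 listed atrial markers, 1 rose and 2 fell, Nppa (-2.32 ± 0.23) and Gja5 (-0.99 ± 0.14); Sln and Bmp10 were at or near 0 in every library, and Myl7 was below 2 CPM on average in both groups. In edgeR's quasi-likelihood test, with Benjamini-Hochberg adjustment over 12893 genes and a threshold of 0.05, 22.0% of all genes were called, 11.4% higher and 10.6% lower in old hearts. Of the called genes 51.7% were higher with TMM scaling, 40.2% with upper-quartile scaling and 32.7% with library size alone.

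Against that background, 4 of the 10 matricellular genes rose in old hearts and 0 fell. The 4 were Thbs1, Ccn1, Ccn2 and Postn. The count was 2 without young 2, without young 3 and in each of the 3 limma fits on FPKM, and 3 without young 1 and with DESeq2. The share of all genes called was itself 12.0% without young 1, 18.7% without young 2, 11.9% without young 3 and 16.7% with DESeq2. In the limma fits it was 23.6% on log2(FPKM + 1), 23.3% on log2(FPKM + 0.1) and 12.5% on log2(FPKM + 1) with no filter. All 10 passed the filter on low counts. Their median log2 fold change was 0.48, against -0.01 over all genes tested. The old and young CPM ranges did not overlap for 5 of the 10, these 4 and Thbs4, always with old above young. Over all genes, 39.9% had ranges that did not overlap, 19.6% with every old value above every young one and 20.3% below. In whole tissue, a change in how many cells of a type are present and a change in RNA per cell cannot be told apart. The 4 rises differed in how even they were. The log2 deviations of old 1, 2 and 3 from the young mean were 2.77, 2.30 and 3.10 for Thbs1. They were 0.69, 0.49 and 0.60 for Postn. For Ccn1 they were 0.62, 1.08 and 3.16, and for Ccn2 0.44, 1.16 and 0.31. Ccn1 and Ccn2 thus each stood highest in 1 old heart, and edgeR still called both without that heart.

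**Figure D1:**
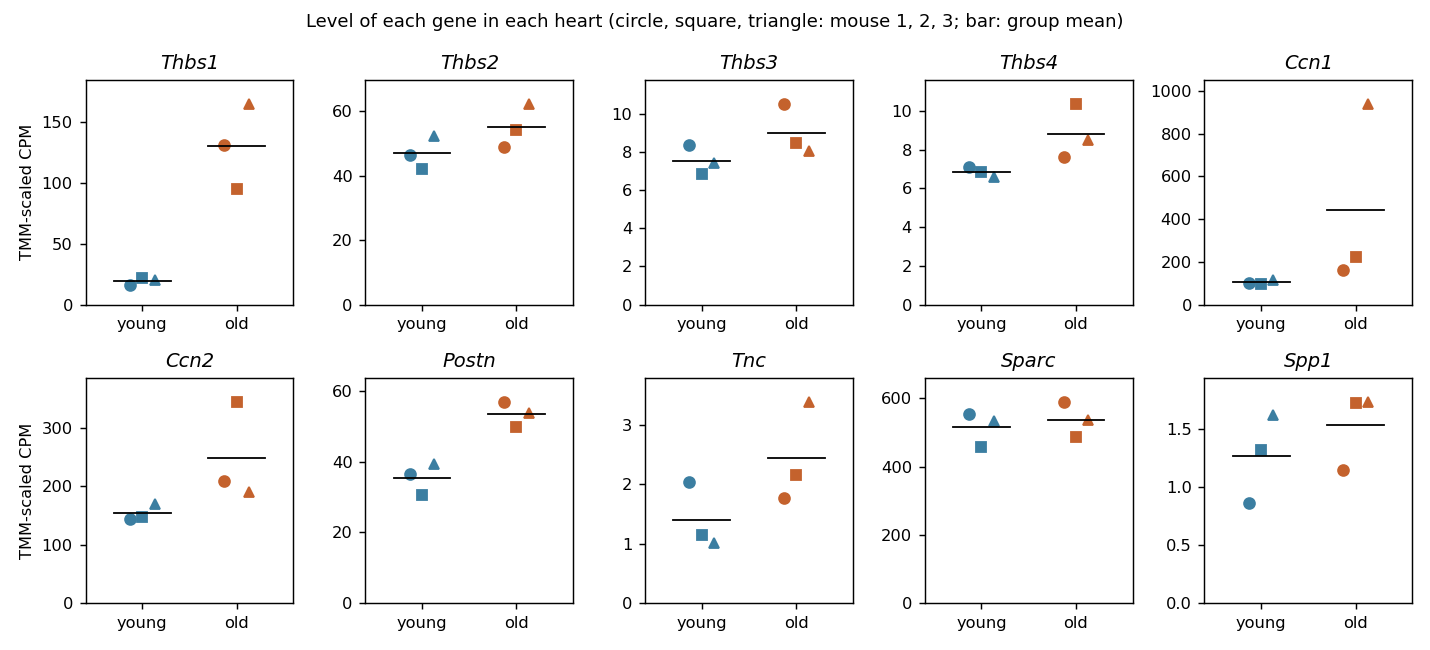
CPM scaled by TMM (y axis, starting at 0) of each of the 10 genes in each heart, young and old on the x axis; circles, squares and triangles are mice 1, 2 and 3 and bars are group means (n = 3). The groups separate for Thbs1, Thbs4, Ccn1, Ccn2 and Postn, and Ccn1 stands at 940 CPM in old 3 against 162 and 222 in the other old hearts.

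Thbs1, the secreted trimeric glycoprotein that activates latent TGF-beta and inhibits angiogenesis through CD36, showed the largest difference of the 10. It had 15.9, 21.7 and 19.97 CPM in young 1, 2 and 3, and 131, 94.4 and 165 CPM in old 1, 2 and 3. Every old heart was far above the highest young one. The means were 19.2 ± 2.96 and 130 ± 35.1 CPM (SD, n = 3). That is 6.78-fold, or 2.76 ± 0.19 (SE) on the log2 scale (edgeR adjusted p = 3.1e-06). With any 1 library left out the log2 fold change stayed between 2.56 and 2.95, and edgeR called the gene in all 6 of those fits. An annotated antisense RNA, Gm29233, shares 187 exonic bases with Thbs1, and without the strand setting of the counting its reads could not be separated.

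The other thrombospondins moved far less, and none of them passed the test. Thbs2, the closest paralog of Thbs1 and also a trimer with antiangiogenic repeats, had 42.1 to 52.2 CPM in young and 48.7 to 62.2 CPM in old hearts (log2 fold change 0.23 ± 0.11, edgeR adjusted p = 0.16). Thbs3, a pentameric thrombospondin, had 6.85 to 8.36 CPM in young and 8.06 to 10.5 CPM in old hearts (0.25 ± 0.15, edgeR adjusted p = 0.26). In both genes the groups overlapped. Thbs4, a pentameric thrombospondin known to be induced in loaded hearts and to act with the stress sensor ATF6, had 7.11, 6.85 and 6.58 CPM in the young and 7.61, 10.4 and 8.49 CPM in the old hearts. These ranges did not overlap, yet the difference missed the threshold (0.37 ± 0.15, edgeR adjusted p = 0.11). Comp, the remaining thrombospondin, had 7.14 ± 1.09 and 6.23 ± 1.73 CPM (-0.19 ± 0.21, edgeR adjusted p = 0.54).

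Per gene length, the make-up of the thrombospondin transcripts differed between the groups without overlap, though 3 against 3 hearts cannot pass 0.05 in an exact test. In FPKM, which divides by gene length, Thbs1 gave 17.7%, 24.6% and 20.6% of the sum of Thbs1 to Thbs4 in the young hearts. In the old hearts it gave 61.7%, 51.8% and 64.2%. The Thbs2 share was 50.4% ± 3.06 among the young and 25.3% ± 3.50 among the old (SD, n = 3), so the leading thrombospondin transcript was Thbs2 in each young heart and Thbs1 in each old heart. The Thbs1 share differed by 38.3 percentage points (exact two-sided permutation p = 0.1, the smallest that 3 against 3 allows). The summed FPKM was 16.1 ± 0.972 in young and 36.1 ± 6.80 in old hearts, again without overlap (exact two-sided permutation p = 0.1). The trimeric pair Thbs1 and Thbs2 together gave 71.3% ± 2.52 of the sum in young and 84.6% ± 3.55 in old hearts (exact two-sided permutation p = 0.1). Shares of a sum depend on each other, so a larger Thbs1 share leaves smaller ones for the rest. The mean FPKM itself was not lower in old hearts for Thbs2 (8.15 and 9.03), Thbs3 (2.42 and 2.73) or Thbs4 (2.20 and 2.68). The shares and the sum thus largely restate the Thbs1 difference.

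**Figure D2:**
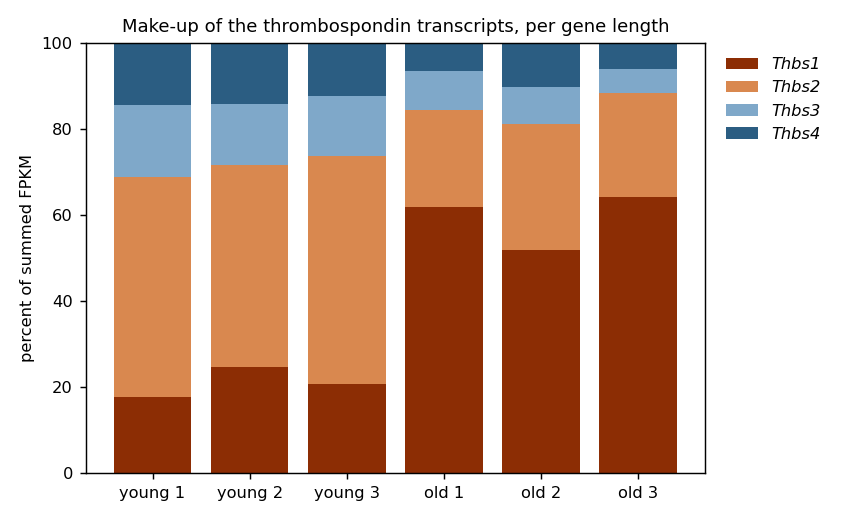
Share of Thbs1, Thbs2, Thbs3 and Thbs4 in their summed FPKM (y axis, percent) for each of the 6 libraries (x axis). Thbs1 takes 17.7% to 24.6% in the young and 51.8% to 64.2% in the old hearts. The Thbs2, Thbs3 and Thbs4 shares are smaller in every old heart than in any young one, though their mean FPKM is not.

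Ccn1 and Ccn2, secreted CCN proteins that bind integrins and heparan sulphate and act on fibroblasts and vessels, both rose, but peaked in different hearts. Ccn1 had 102, 97.8 and 117 CPM in young 1, 2 and 3. It had 162, 222 and 940 CPM in old 1, 2 and 3. Every old heart was above every young one, and old 3 stood far above the rest. The log2 fold change was 2.07 ± 0.50 (edgeR adjusted p = 0.013) with old 3 and 0.88 (edgeR adjusted p = 0.00034) without it. The call was lost without young 2 (edgeR adjusted p = 0.053) and without young 3 (edgeR adjusted p = 0.059). None of the 3 limma fits on FPKM called it, with adjusted p = 0.063 for log2(FPKM + 1).

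Ccn2, known as a mediator of fibrosis downstream of TGF-beta, had 144, 147 and 170 CPM in young 1, 2 and 3. Its values in old 1, 2 and 3 were 208, 344 and 191 CPM. Here old 2 stood highest and old 3, the heart with the most Ccn1, was the lowest of the old group. The log2 fold change was 0.69 ± 0.18 (edgeR adjusted p = 0.019), and without old 2 it was 0.38 (edgeR adjusted p = 0.020). The call was lost when young 1, young 2 or young 3 was left out (edgeR adjusted p = 0.072, 0.066 and 0.052), and with DESeq2 (adjusted p = 0.091). All 3 limma fits on FPKM lost it too, with adjusted p = 0.055 for log2(FPKM + 1). Of the other CCN genes, Ccn5, which lacks the C-terminal domain of its relatives, fell from 16.1 ± 1.42 to 9.31 ± 1.25 CPM (-0.79 ± 0.13, edgeR adjusted p = 0.0015). Ccn3 (0.42 ± 0.16, edgeR adjusted p = 0.080) and Ccn6 (-0.31 ± 0.45, edgeR adjusted p = 0.65) were not called. Ccn4, at 0.214 and 0.754 CPM on average in young and old hearts, was not tested. These other CCN genes were named after their values were seen. An antisense RNA, Gm15270, shares 636 exonic bases with Ccn2.

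Within a heart, Ccn1 made up nearly the same part of Ccn1 and Ccn2 together in 5 of the 6 libraries. Its share of their summed FPKM was 45.5%, 44.0% and 44.9% in the young hearts and 47.9%, 43.4% and 85.4% in old 1, 2 and 3. The difference between the groups, 14.1 percentage points, was smaller than the SD within old hearts, 23.0 (exact two-sided permutation p = 0.4). Without old 3 it was 0.86 percentage points.

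Promoter sequence is shown for Ccn1, which rose, for Thbs4, which holds the same TEAD motif and was not called, and for Postn, which rose and lacks it. The sequences are the 250 bases before the transcription start in RefSeq's GRCm38.p6 annotation, an older build than the GRCm39 of the submitters' notes. The RefSeq table matched 8 of the 10 genes, not Thbs1 and Ccn2. They are written 5′ to 3′ on the gene's strand, with motif matches on either strand in capitals. The motifs searched were the TEAD motif GGAATG, the TATA box TATAAA, the GC box GGGCGG, the EGR motif GCGNGGGCG, the AP-1 motif TGANTCA, the CRE TGACGTCA, the heat shock motif GAANNTTC and the CArG box bound by SRF. Matches may overlap, as both TEAD matches of Thbs4 do.
Ccn1, chr3:145649986-145650235, minus strand: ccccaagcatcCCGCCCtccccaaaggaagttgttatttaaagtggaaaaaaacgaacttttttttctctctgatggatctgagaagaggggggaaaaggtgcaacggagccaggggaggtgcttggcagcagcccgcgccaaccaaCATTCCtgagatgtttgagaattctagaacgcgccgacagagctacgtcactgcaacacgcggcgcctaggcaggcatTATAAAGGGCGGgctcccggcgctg
Thbs4, chr13:92794819-92795068, minus strand: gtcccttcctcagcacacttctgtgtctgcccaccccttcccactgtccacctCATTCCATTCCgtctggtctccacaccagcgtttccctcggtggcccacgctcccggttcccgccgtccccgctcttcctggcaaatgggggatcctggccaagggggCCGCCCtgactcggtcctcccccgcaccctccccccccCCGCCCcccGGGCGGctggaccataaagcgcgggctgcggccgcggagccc
Postn, second start, chr3:54360857-54361106, plus strand: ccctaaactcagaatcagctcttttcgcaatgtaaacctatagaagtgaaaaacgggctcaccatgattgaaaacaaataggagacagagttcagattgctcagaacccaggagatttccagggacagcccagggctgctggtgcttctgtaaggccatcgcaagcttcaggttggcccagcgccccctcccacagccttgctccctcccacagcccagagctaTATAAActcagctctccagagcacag

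The Ccn1 window holds 1 TEAD match at bases -103 to -98, counted back from the start, a TATA box at -25 to -20 and 2 GC boxes. The Thbs4 window holds 2 TEAD matches, at -197 to -192 and -192 to -187, and 3 GC boxes. Postn has a TATA box at -26 to -21 before its second start and none of these motifs before its first. Of all 32851 windows of this length in the table, 12.6% hold the TEAD motif, 12.4% the TATA box and 32.7% the GC box. The EGR motif, held by 4.7% of all windows, was found among the 8 genes only before Tnc, in the overlapping windows of its 2 starts. No CArG box, AP-1, CRE or heat shock match was found in the windows of the 8 genes, against 1.47%, 6.75%, 1.55% and 6.69% of all windows. The absence says only that these letters are not in these 250 bases.

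Postn, a fasciclin-domain protein made by fibroblasts that links collagen and integrins and marks activated cardiac fibroblasts, had the most even rise. It had 36.7, 30.7 and 39.3 CPM in young 1, 2 and 3 and 56.9, 49.9 and 53.8 CPM in old 1, 2 and 3. The groups did not overlap. The means were 35.6 ± 4.44 and 53.5 ± 3.54 CPM (SD, n = 3), and edgeR put the log2 difference at 0.59 ± 0.10 (adjusted p = 0.0019). It was called whichever of the 6 libraries was omitted (log2 fold change 0.49 to 0.67) and under all 11 other settings.

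Tnc, the hexameric tenascin that appears in healing infarcts, had low counts, with 13 to 26 counts in young and 20 to 39 counts in old libraries. Its level was 1.39 ± 0.556 and 2.44 ± 0.839 CPM (SD, n = 3), and the groups overlapped (log2 fold change 0.80 ± 0.35, edgeR adjusted p = 0.12). Spp1, the integrin-binding phosphoprotein of macrophages and bone, had 11 to 21 counts in young and 13 to 20 in old libraries, with 1.27 ± 0.386 and 1.54 ± 0.335 CPM (0.28 ± 0.33, edgeR adjusted p = 0.57). A gene annotated on the same strand, Gm42793, shares 309 exonic bases with Spp1. Sparc, the collagen-binding protein that assists fibril assembly, had the highest young level of the 10 and differed least. Its range was 456 to 555 CPM in young and 486 to 589 CPM in old hearts, a log2 difference of 0.06 ± 0.10 (edgeR adjusted p = 0.70). Its sign turned without young 2 (-0.02), with library size alone (-0.02) and on log2(FPKM + 1) values (-0.02), so no direction is given.

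**Figure D3:**
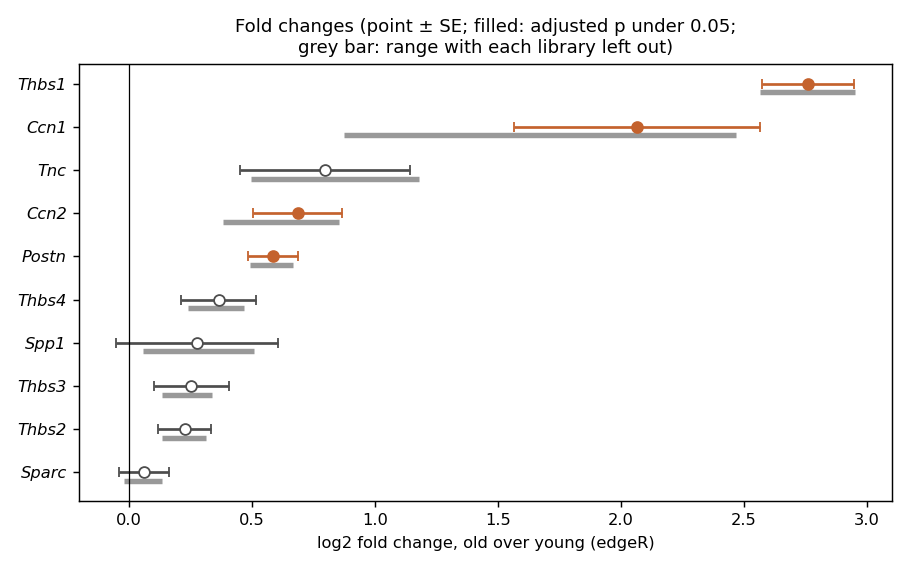
log2 fold change of old over young (x axis) for each of the 10 genes, with its SE; filled points passed the edgeR threshold and grey bars give the range when each library was left out in turn. Thbs1 (2.76) and Ccn1 (2.07) lie far from the rest, and the grey bar of Ccn1 reaches down to 0.88.

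Ordered by level per gene length, the young hearts ran Sparc, Ccn2, Ccn1, Postn, Thbs2, Thbs1, Thbs3, Thbs4, Spp1 and Tnc, from a mean of 201 FPKM for Sparc to 0.197 FPKM for Tnc. Of these neighbours, Postn with Thbs2 (10.7 and 8.15 FPKM) and Thbs3 with Thbs4 (2.42 and 2.20 FPKM) overlapped between libraries, and the other 7 neighbouring pairs did not. In old hearts Ccn1 led by its mean (213 FPKM), but it was above Sparc (198 FPKM) in old 3 alone, with 77.8, 105 and 457 FPKM in old 1, 2 and 3. Thbs1 had rank 6 in young hearts (3.37 ± 0.471 FPKM) and rank 4 in old hearts (21.7 ± 6.19 FPKM), where its range overlapped that of Postn (15.3 FPKM).

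**Figure D4:**
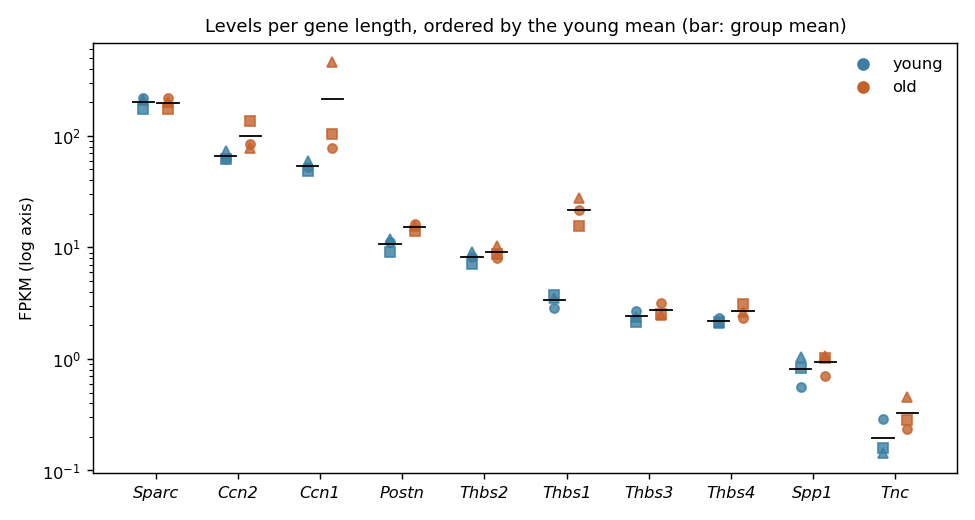
FPKM (y axis, log scale) of the 10 genes in each heart, ordered on the x axis by the young mean; symbols are mice 1 (circle), 2 (square) and 3 (triangle), young in blue and old in orange, and bars are group means. Sparc stays near 200 FPKM (means 201 and 198), while Thbs1 passes Thbs2 in the old hearts.

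Other matricellular genes went both ways. Of 23 tested relatives, 6 rose and 2 fell (median log2 fold change 0.01), and 5 fell without old 3. Angptl2 (0.72 ± 0.09) and Cilp, a matrix protein of cardiac fibroblasts (1.003 ± 0.16), rose. Smoc1, a modular calcium-binding protein of the Sparc family, fell from 18.9 ± 2.06 to 8.62 ± 1.87 CPM (-1.13 ± 0.15, edgeR adjusted p = 0.00040). The Sparc paralog Sparcl1 was at 582 ± 36.4 and 591 ± 79.6 CPM and the periostin paralog Tgfbi at 49.3 ± 2.39 and 54.4 ± 2.55 CPM, both uncalled and named after their values were seen.

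Receptors of these proteins were counted next. Of 32 tested, 2 rose and 2 fell (median log2 fold change -0.01.) Without old 3, 4 rose and 3 fell, with 23.3% of all genes called. Itga5, the fibronectin receptor chain, rose from 76.4 ± 7.06 to 104 ± 7.52 CPM (0.45 ± 0.09, edgeR adjusted p = 0.0060), and Itgb5, which with Itgav binds periostin and osteopontin, fell from 186 ± 9.50 to 133 ± 5.42 CPM (-0.49 ± 0.08, edgeR adjusted p = 0.0016). Itgb2, the leukocyte integrin chain, rose (0.45 ± 0.15) and Lrp5 fell (-0.31 ± 0.08), both calls lost without young 1, young 3 or old 1. Lrp5 was called under all 11 other settings and Itgb2 under 4 of them. The Thbs1 receptors Cd36 (1723 ± 16.5 and 1733 ± 129 CPM) and Cd47 (56.2 ± 1.37 and 58.0 ± 3.09 CPM) were not called; these 2 were named after their values were seen.

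Among 23 genes of latent TGF-beta, its receptors and its Smads, 6 rose and 1 fell (median log2 fold change 0.09); 4 rose without young 1 or young 2, and 3 on log2(FPKM + 1) values. Smad7, the inhibitory Smad and a feedback target, rose from 20.9 ± 1.36 to 55.9 ± 17.2 CPM (1.42 ± 0.19, edgeR adjusted p = 0.00036). Lrrc32, which holds latent TGF-beta on the cell surface, rose by 1.04 ± 0.12, Skil, a Smad corepressor, by 0.87 ± 0.16 and Ltbp2, a latent TGF-beta binding protein of the matrix, by 0.76 ± 0.17. The single fall was Tgfbr2 (-0.27 ± 0.08), named after its values were seen and lost when any library but old 3 was left out.

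Targets of SRF and of YAP, which are known to induce Ccn1 and Ccn2, were counted apart. Of 23 genes of SRF, its cofactors and their cytoskeletal targets, 17 rose and 2 fell (median log2 fold change 0.43.) The cytoplasmic actin genes Actg1 (1.47 ± 0.11) and Actb (1.15 ± 0.11), the LIM protein gene Fhl2 (1.04 ± 0.10) and the focal adhesion gene Zyx (0.85 ± 0.08) had the smallest p-values. The 17 rises were 11 without young 1 or young 3 and on log2(FPKM + 1) values. Srf itself (0.73 ± 0.11) and its cofactor gene Myocd (0.33 ± 0.08) were among the rises, and the cofactor gene Mrtfb (-0.51 ± 0.08) among the falls. These 3 were named after their values were seen. Of 26 tested YAP, TAZ and TEAD genes and targets other than Ccn1 and Ccn2, 3 rose and 6 fell (median log2 fold change -0.07.) Nuak2, a kinase gene, rose from 6.17 ± 0.598 to 14.3 ± 2.80 CPM (1.21 ± 0.17, edgeR adjusted p = 0.00042) and Lats2, the Hippo pathway kinase, by 0.48 ± 0.10. Ankrd1, a stretch-responsive sarcomere protein, fell from 1524 ± 44.0 to 762 ± 149 CPM (-0.9998 ± 0.13, edgeR adjusted p = 0.00024), and Igfbp3 fell by 0.76 ± 0.13 on the log2 scale. The 6 falls also held the regulators Yap1 (-0.27 ± 0.09) and Tead1 (-0.47 ± 0.14), named after their values were seen, so the count is not of targets alone.

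Immediate early genes, which cells switch on within minutes of a stimulus and among which Ccn1 and Thbs1 are often counted, were set beside these 2 genes. Of 26 listed immediate early genes other than the 10 described here, 24 rose and 0 fell. Nr4a3 (4.80 ± 0.27), Fosb (4.09 ± 0.25), Fosl2 (1.87 ± 0.11) and Ier5 (1.56 ± 0.09), all transcriptional regulators, had the smallest p-values. Set against the young mean, the median log2 deviation of the 26 genes came to 1.69 for old 1, 1.77 for old 2 and 2.89 for old 3. Single genes of the list differed in this. In old 1, 2 and 3, Nr4a3 had 129, 179 and 90.0 CPM and Fosl2 141, 141 and 137 CPM, both lowest in old 3. Ier2, with 47.2, 40.4 and 177 CPM, was highest in old 3. The Ccn1 deviation was 0.62, 1.08 and 3.16 in the same hearts, and that of Thbs1 was 2.77, 2.30 and 3.10. Old 3 was thus the highest of the 3 for Ccn1, Thbs1 and the immediate early median, while Ccn2 was highest in old 2 (0.44, 1.16 and 0.31) and Postn in old 1 (0.69, 0.49 and 0.60). The summed level of the 26 immediate early genes was 767 to 1243 CPM in young and 2732 to 6297 CPM in old hearts. Their part in the rises of Ccn1 and Thbs1 was not tested. The labels do not say whether young and old hearts were collected and handled alike, so in these genes age and handling cannot be told apart. Without old 3, 23 of the 26 still rose and the log2 fold change of Thbs1 was 2.56.

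**Figure D5:**
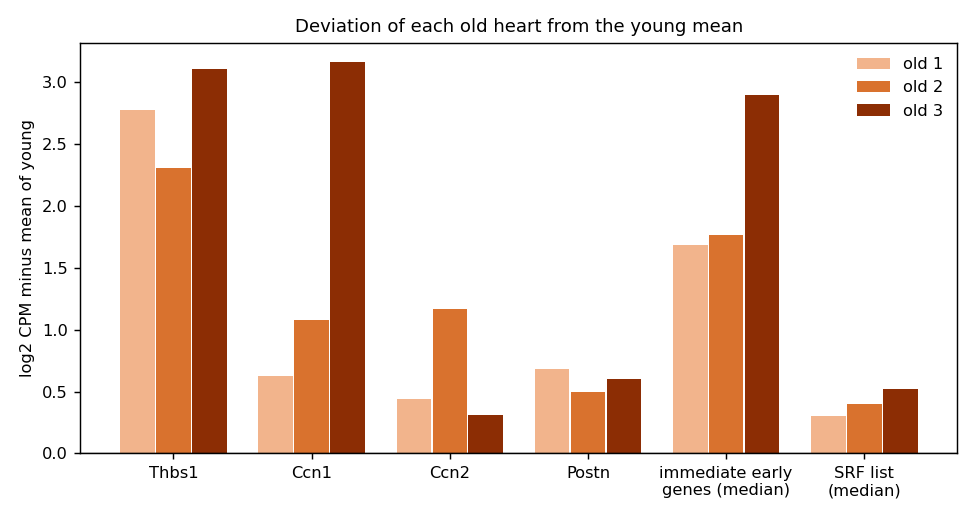
log2 CPM of each old heart minus the mean of the 3 young hearts (y axis) for the 4 genes that rose and, at the right, for the medians of the immediate early list and of the SRF list. Ccn1 reaches 3.16 in old 3 against 0.62 and 1.08 in old 1 and old 2, Ccn2 peaks in old 2 at 1.16, and Postn lies between 0.49 and 0.69 in all 3.

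The genes with the most similar pattern were found from the Euclidean distance between log2 CPM values of the 6 libraries, taken as deviations from the young mean, over 11709 other genes. For Thbs1 they were the cochaperone gene Dnajb1 (distance 0.62), Egr3 (0.75) and Egr2 (0.84). Those of Ccn1 were Ier2 (0.65), Zfp36 (0.69) and Jun (0.95), with Ier2 at 47.2, 40.4 and 177 CPM in old 1, 2 and 3. Nearest to Ccn2 were Rasl10a (0.27), Stbd1 (0.32) and Btbd11 (0.32), and nearest to Postn were Myh9 (0.13), Pprc1 (0.14) and Myadm (0.14). Of the genes nearest to Ccn2, Rasl10a (edgeR adjusted p = 0.071) and Btbd11 (edgeR adjusted p = 0.10) were not called.

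Genes of the unfolded protein response, the pathway tied to Thbs4, were counted beside it: of 22 tested, 2 rose and 1 fell (median log2 fold change -0.10.) The risers were Atf4 (0.88 ± 0.11) and Ddit3 (0.70 ± 0.12), both transcription factors of the integrated stress response. Sel1l fell (-0.29 ± 0.09, edgeR adjusted p = 0.045), a call lost without young 1, young 3, old 1 or old 3. Of 22 fibrillar matrix and collagen-modifying genes, 4 rose and 3 fell (median 0.06). The collagen chaperone gene Serpinh1 (0.91 ± 0.10) and the lysyl hydroxylase gene Plod2 (0.87 ± 0.15) rose, and elastin, Eln (-1.22 ± 0.12), and Col3a1 (-0.66 ± 0.12) fell. Of 14 tested proteases that cut matricellular proteins and their inhibitors, 3 rose and 0 fell. Adamts1, which cleaves Thbs1 and Thbs2, rose from 54.9 ± 19.2 to 193 ± 26.1 CPM (1.81 ± 0.21, edgeR adjusted p = 0.00015). The other risers were Timp3 (0.96 ± 0.13) and Timp1 (1.04 ± 0.25), the call of Timp1 being lost without young 3. Without old 3, 3 genes of this list fell, with 23.3% of all genes called.

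Markers of cells that make these proteins were set beside them. Of 12 fibroblast markers, 1 rose (Lum, 0.28 ± 0.09, kept only without old 2) and 1 fell (Tcf21, -0.51 ± 0.13, lost without young 1 or young 2), and their sum was 2919 to 3250 CPM in young and 2930 to 3599 CPM in old hearts. Of 9 tested markers of activated fibroblasts, 5 rose, among them Cilp and Ltbp2, with sums of 231 to 256 CPM in young and 281 to 419 CPM in old hearts. A large part of these sums was Acta2, another of the 5, at 130 ± 9.41 CPM in young and 222 ± 75.1 CPM in old hearts. Acta2 is also on the SRF and smooth muscle lists. Cilp and another riser, Mfap5 (0.40 ± 0.11), are also among the relatives, and Ltbp2 is on the latent TGF-beta list. These calls are thus counted in more than 1 list. Comp (-0.19 ± 0.21), Lox (-0.27 ± 0.14) and Col8a1 (-0.16 ± 0.11) of this list were not called. Mfap5, Comp, Lox and Col8a1 were picked for mention with their results known. Fap, a defining marker of activated fibroblasts, was at 4.68 ± 0.517 and 4.74 ± 0.441 CPM and was named after its values were seen. This list stood beside the Postn rise, and its part in it was not tested.

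Of 7 tested markers of platelets, which are rich in thrombospondin 1 protein, 1 rose, Pf4 (0.62 ± 0.11, edgeR adjusted p = 0.0021). The list sums overlapped, with 35.1 to 60.7 CPM in young and 51.9 to 80.2 CPM in old hearts. Set against the young mean, the median log2 deviation of the 7 was 0.91, 0.06 and -0.08 in old 1, 2 and 3. Of 14 macrophage markers, 3 rose, among them Cd68 (0.54 ± 0.10), and 1 fell, Cx3cr1 (-2.15 ± 0.18), with sums of 944 to 1049 CPM in young and 1015 to 1276 CPM in old hearts. Of 11 endothelial markers 1 rose (Esam, 0.37 ± 0.08) and 2 fell, among them Tek (-0.50 ± 0.10). Of 11 smooth muscle and pericyte markers 3 rose and 4 fell, with Pdgfrb at -0.69 ± 0.11 and Cspg4 at -0.66 ± 0.14. The 3 risers were Acta2 (0.77 ± 0.20), Cnn1 (0.64 ± 0.21) and Tagln (0.29 ± 0.09), named after their values were seen. They are also counted in the SRF list. Of 5 tested tendon, valve and cartilage markers, Cnmd rose (1.96 ± 0.27) and Scx fell (-0.75 ± 0.17), while Tnmd, Col2a1 and Col9a1 were at or near 0. Of 7 tested epicardial markers 1 rose, Wt1 (1.67 ± 0.13), and 0 fell, with a list median of -0.56 on the log2 scale. Of 7 Schwann cell markers 0 were called. The part of these cell types in the 4 rises was not tested.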

How the data were processed

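TruSeq Stranded mRNA libraries were made from heart RNA isolated with a mirVana kit, per the labels' protocols. The authors deposited whole-number gene counts, and FPKM values (counts divided by gene length and library total) that the authors computed. The tools named in the submitters' processing notes are HTSeq, StringTie, Cufflinks, HISAT2, Bowtie2, DESeq and Trimmomatic, with the build GRCm39; what each did, its version and whether counting used strand are not given in the sources here. The 12 files of single samples held the same values as the joint tables, and 1041 of 18005 genes had no count.

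The test on counts was that of edgeR 4.0.16, run in R 4.3.3 (filterByExpr, TMM, quasi-likelihood F test, all 6 libraries, no covariate); 12893 genes were tested. Standard errors come from the fold change and F. CPM are TMM scaled. FPKM served for levels between genes and shares. Between replicates of a group, chi-square per degree of freedom was 7.9 to 16.7, above sampling noise. The test was checked on simulated counts with known changes.

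The 10 genes and the lists were chosen with earlier results of these data known. Named were all 10; of each other list up to 4 called genes of smallest p (2 for marker lists), or the 2 most abundant where none was called; and the 3 nearest patterns to each called gene. 1 gene that this rule names is not reported here. Alternatives were scaling by library size alone, upper quartile or RLE, no filter, 1 CPM in 3 libraries, a replicate block, DESeq2 1.42.0, limma-voom (limma 3.58.1), limma on log2(FPKM + 1) and log2(FPKM + 0.1) where the mean FPKM reached 1, log2(FPKM + 1) with no filter, and each library left out.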

Additional observations from a re-analysis of the deposited data

How the results depend on the processing

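Of 103 results, each recomputed under several settings, 0 had a call or share that changed sign. Counts of called genes have no sign, so they could not reverse. Of 389 recomputed counts and shares, 324 stayed close to the main value by a loose rule. It took in 16 immediate early rises on log2(FPKM + 1) with no filter, against 24 in the main fit. It also took in counts of 0 that stayed at 0. Thbs1 and Postn were called under all 11 other settings and in all 6 fits with a library left out, Ccn1 in 8 and 4 of them, and Ccn2 in 7 and 3; the other 6 genes were called in 0. Tnc and Spp1 have no value in the 2 fits limited to a mean FPKM of at least 1. With library size alone 2122 of all genes fell. On log2(FPKM + 1), log2(FPKM + 0.1) and log2(FPKM + 1) with no filter, limma called 907, 897 and 810 genes higher, and 2 of the 10 matricellular genes in each. SRF rises were 11, 11 and 9 in these fits. Latent TGF-beta rises were 3 with both filtered FPKM fits, and falls were 2 there and with upper-quartile or library-size scaling. Receptor rises were 1 with those scalings, DESeq2, limma-voom and all 3 FPKM fits, and receptor falls were 4 with those scalings. Unfolded protein response falls were 2 with library size alone and both filtered FPKM fits. Fibrillar matrix rises were 2 with the unfiltered FPKM fit. Protease falls were 1 with library size alone, no filter, DESeq2 and limma-voom. The cause of these differences was not tested.

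Leaving out 1 library at a time gave 850 (without young 1) to 1597 (without old 3) genes higher and 682 (without young 3) to 1444 (without old 3) lower. It gave 2 to 4 of the 10 matricellular genes higher, 2 to 5 relatives lower, 1 to 4 receptors higher and 1 to 3 lower, and 0 to 1 latent TGF-beta genes lower. SRF genes were 11 to 16 higher and 1 to 2 lower, unfolded protein response genes 0 to 3 lower and proteases 0 to 3 lower. The Thbs1 share of thrombospondin FPKM differed by 35.8 to 42.02 percentage points, and the Ccn1 share of Ccn1 and Ccn2 FPKM by 0.86 to 21.9.

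Same-numbered mice correlated at 0.0768, 0.0716 and 0.0118 in their deviations from the group means, so the numbers were not taken to pair them; young 3 correlated more with old 2 (0.0724) than with old 3. With the replicate number as a block, 1417 genes were higher and 1317 lower, 4 matricellular genes were higher, 0 unfolded protein response genes fell and 1 protease fell. Tnc and Spp1 rest on 11 to 39 counts in each library.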
